A study of Mus musculus with 3 samples.

Results

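The genes of respiratory complex I were examined for signal of the transcription factor MYC and of Flag-tagged POH1 in Pan02 cells, a mouse pancreatic ductal adenocarcinoma line. Members were all protein-coding genes of the RefSeq GRCm38 table on nuclear chromosomes whose symbol starts with Nduf. There were 49 such genes among 21887, of which 41 count as structural subunits by their symbols (Ndufa, Ndufb, Ndufc, Ndufs, Ndufv) and 8 are assembly factors (Ndufaf). CUT&Tag was used, a method that tethers a transposase to antibody-bound chromatin so that adapters are inserted into the DNA close by. The 3 libraries were Flag in cells that stably express POH1-Flag, MYC in cells with the vector, and MYC in the cells that stably express POH1-Flag. POH1, encoded by Psmd14, removes ubiquitin chains at the proteasome, and the series title names it as a regulator of MYC. With 1 library per group there is no replicate error for any difference between the cell lines. The labels do not say whether the POH1-Flag line is a single clone.

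Complex I oxidises NADH at the start of the mitochondrial respiratory chain, passes the electrons to ubiquinone and pumps protons. Its matrix arm carries the flavin and the iron-sulfur clusters, its membrane arm the proton channels. The catalytic core is shared with bacteria, and the supernumerary subunits surround it. Assembly factors are needed to build the complex and are not part of the finished enzyme. MYC binds E-boxes as a dimer with MAX and is known to act on many genes of growth and of mitochondrial metabolism.

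A peak was counted for a gene when its summit lay within 1 kb of either gene end. The pileup, which is the number of reads over the summit, was solved from each peak's deposited fold and −log10 p. The lowest background solved in a library is called its genome-wide background, and it was 0.946 reads in the Flag library, 0.845 in the vector MYC library and 0.826 in the other MYC library. Relative depths in the same order were 1.05, 1 and 1.06. For these the genome-wide background was divided by the narrowest peak width in the list (233, 219 and 202 bp), taken as the fragment length. Peaks cannot show what a gene expresses, but none of 10 acinar and none of 5 leukocyte marker genes had a MYC peak at an end in either line. Among 10 ductal markers 3 had one in vector and 4 in POH1-Flag cells, and among 6 fibroblast markers 0 and 1. The ductal markers with a peak were Muc1, Spp1 and Sox9 in both lines and Krt7 in POH1-Flag cells only. The marker genes without a peak included Krt19, Krt8, Krt18 and Epcam, which define epithelial and duct cells.

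The promoter letters of 4 members are shown as examples for the results on motifs. Whether letters go with peak height was not tested. The RefSeq promoter table (GRCm38.p6) held windows from 250 bases before to 50 after the start site for 42 of the 49 members, and the 250 bases before the start are printed 5′ to 3′ on the gene's strand. Ndufa7 (chr17:33824322-33824571, plus strand) and Ndufv1 (chr19:4012756-4013005, minus strand) were the members whose window held the canonical E-box CACGTG. Ndufb5 (chr3:32736813-32737062, plus strand) was among the strongest in POH1-Flag cells and its window held none of the motifs searched. Ndufaf4 (chr4:24897833-24898082, plus strand) stands for the assembly factors. Capitals mark CACGTG, the variant E-box CACGCG and the NRF1 core CGCATGCG, on either strand.
Ndufa7: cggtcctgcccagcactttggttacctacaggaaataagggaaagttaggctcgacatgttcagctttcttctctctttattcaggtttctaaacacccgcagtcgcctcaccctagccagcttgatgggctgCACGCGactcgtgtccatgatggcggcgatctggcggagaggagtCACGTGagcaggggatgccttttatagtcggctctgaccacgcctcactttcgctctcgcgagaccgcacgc
Ndufv1: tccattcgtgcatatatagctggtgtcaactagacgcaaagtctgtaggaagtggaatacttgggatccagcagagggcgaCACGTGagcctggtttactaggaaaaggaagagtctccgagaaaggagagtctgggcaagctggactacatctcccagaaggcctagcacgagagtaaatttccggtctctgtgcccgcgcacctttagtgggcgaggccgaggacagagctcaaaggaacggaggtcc
Ndufb5: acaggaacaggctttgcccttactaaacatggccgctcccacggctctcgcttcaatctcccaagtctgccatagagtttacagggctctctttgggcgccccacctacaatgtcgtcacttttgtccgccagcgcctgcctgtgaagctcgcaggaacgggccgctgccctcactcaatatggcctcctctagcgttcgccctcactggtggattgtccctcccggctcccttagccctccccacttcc
Ndufaf4: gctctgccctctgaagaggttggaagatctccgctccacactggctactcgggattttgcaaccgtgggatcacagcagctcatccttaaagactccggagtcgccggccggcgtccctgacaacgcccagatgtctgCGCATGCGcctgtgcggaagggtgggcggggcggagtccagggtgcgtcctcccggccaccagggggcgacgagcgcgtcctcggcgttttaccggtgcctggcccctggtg

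MYC peaks lay near 25 of the 49 complex I genes in vector cells and near 42 in POH1-Flag cells. As shares these were 51.0% (Wilson 95% interval 37.5 to 64.4%) and 85.7% (73.3 to 92.9%). The background over all protein-coding genes was 28.2% in vector and 40% in POH1-Flag cells. Every member with a vector peak had one again in POH1-Flag cells, and 17 had one in POH1-Flag cells only. Of all genes with a vector peak 1.99% were without one in POH1-Flag cells. Among all genes without a vector peak 17.2% had one in POH1-Flag cells, against 17 of 24 members (70.8%, 50.8 to 85.1%). Both MYC lists were also cut to the same number of peaks by −log10 p. Then 29 members had a peak in POH1-Flag cells, beside 31.6% of all genes. Of the 24 members without a vector peak 8 had one there, beside 8.65% of all genes without a vector peak. At that setting not every member with a vector peak had one again in POH1-Flag cells. Intervals here treat genes as draws from 1 library and say nothing about replicates.

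No member had a Flag peak near an end. The count of 0 of 49 allows a share of up to 6.12% by the limit of 3 counts of the total and up to 7.27% by the Wilson interval drawn in the plot of shares, and over all genes the share was 0.196%, and that share of 49 genes is less than 1 gene. No Flag summit lay inside a member either, and the nearest one to any member's end was 11562 bp away.

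**Figure D1:**
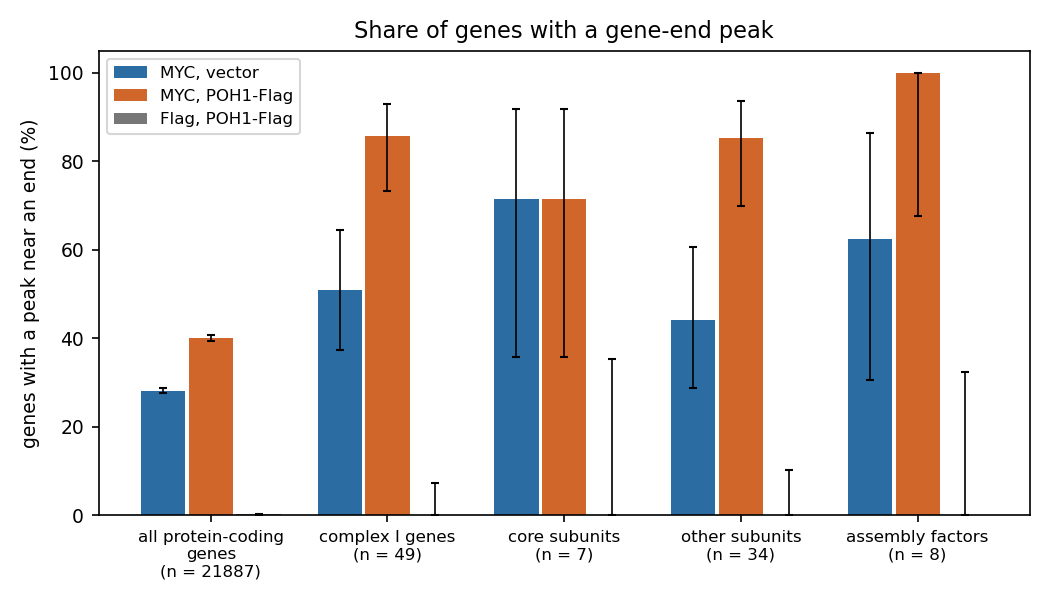
Percent of genes with a peak summit within 1 kb of an end, for MYC in vector cells (blue), MYC in POH1-Flag cells (orange) and Flag (grey), with Wilson 95% intervals as error bars. Complex I genes stand at 51.0% and 85.7% in the MYC lists, the 7 core subunits stand at 71.4% in both, and Flag is at 0 for every complex I group.

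Among the 7 core subunits in this nuclear gene set, all of the matrix arm, the same 5 had a MYC peak in both cell lines. Ndufv1, which binds NADH and the flavin (chromosome 19, 4007499 to 4012755), showed 14 reads at the summit in vector cells and 29 in POH1-Flag cells. Ndufv2, its iron-sulfur partner, had 10 and 20 reads. These peaks were higher in POH1-Flag cells, with ratios of pileup over genome-wide background of 2.12 (exact conditional Poisson 95% interval 1.08 to 4.34) and 2.05 (0.914 to 4.90). Ndufs1, the largest subunit and a carrier of iron-sulfur clusters, had 14 and 21 reads, a ratio of 1.53 (0.744 to 3.26). Ndufs7, whose cluster hands electrons to ubiquinone, had 16 and 24 reads, a ratio of 1.53 (0.782 to 3.09). Ndufs8, also an iron-sulfur subunit, had 14 and 31 reads, a ratio of 2.27 (1.17 to 4.61). The interval thus lay above 1 for Ndufv1 and Ndufs8, while for Ndufv2, Ndufs1 and Ndufs7 it held 1. Ndufs3, a core subunit of the matrix arm, had no peak near an end in either line. Its nearest summit was 149163 bp from an end in vector and 13280 bp in POH1-Flag cells.

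Among members, the strongest MYC peaks lay near ends of genes for membrane-arm subunits, all of which count as supernumerary in this gene set. In POH1-Flag cells they lay at Ndufa11 (chromosome 17, 56717762 to 56724248) with 54 reads, Ndufb5 (chromosome 3, 32737057 to 32751559) with 48, Ndufa13 with 47 and Ndufb6 with 34. Vector cells had 20, 18, 23 and 18 reads at these genes. In POH1-Flag cells each of these summits was shared with a neighbouring gene whose end lay nearer. The neighbours were Vmac, Mrpl47, Tssk6 and Topors in the same order. Ndufa13, also known as GRIM19, is a membrane-arm subunit first described as a cell death regulator. Ndufa6, a LYR-motif protein of the matrix arm, followed with 14 and 33 reads. Ndufb1 was the strongest member in vector cells with 25 reads and had 26 in POH1-Flag cells. Ndufaf3 had 18 reads in vector cells and 22 in POH1-Flag cells. Across all members with a peak the pileups ran from 9 to 25 reads in vector cells (median 13) and from 7 to 54 in POH1-Flag cells (median 19). Over all genes with a peak the medians were 15 and 21 reads and the highest pileups 81 and 102. The members' medians were thus slightly below those of all marked genes. When only peaks with a −log10 q of 10 or more were kept, Ndufb1 was the 1 of 49 members left in vector cells. That share is below the 6.91% of all genes. In POH1-Flag cells 18 of 49 members were left, above the 20.1% of all genes.

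**Figure D2:**
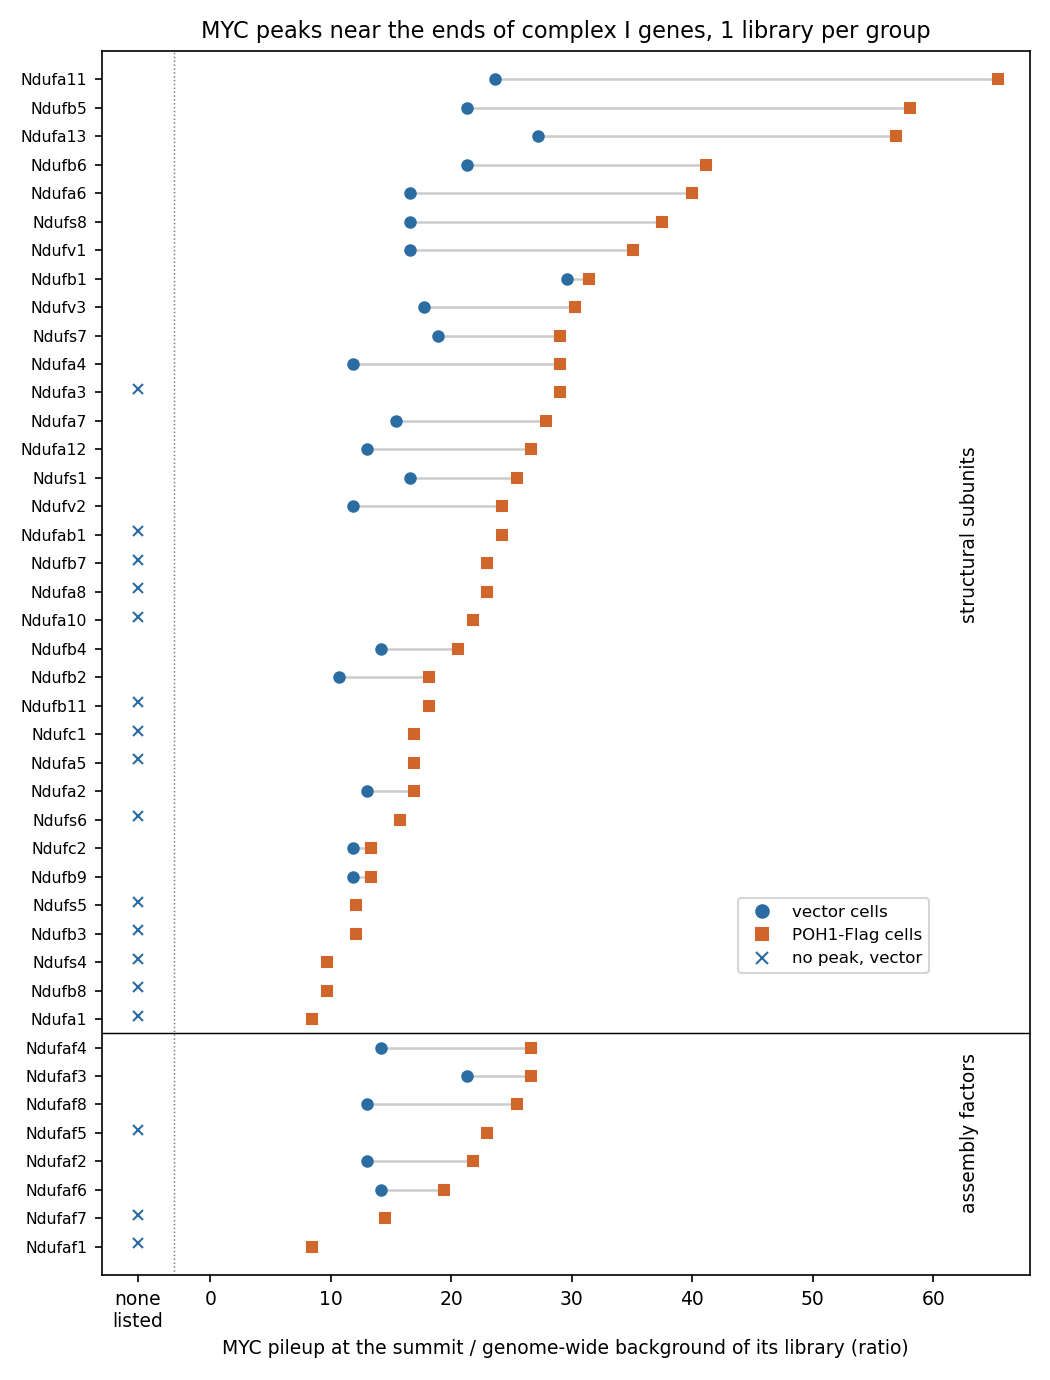
MYC pileup at the strongest gene-end summit of each of the 42 genes with a peak, as a ratio to its library's genome-wide background (x axis), for vector cells (blue circles) and POH1-Flag cells (orange squares), 1 library each. Crosses in the left column stand for no listed vector peak, and 25 genes have a circle and a square and 17 the square alone.

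Where both cell lines had a peak, the pileup was higher in POH1-Flag cells at 25 of 25 members. The median log2 ratio was 0.86, a fold of 1.81, with single ratios from 1.06 to 2.76. The same held for 98.3% of the 6049 genes with a peak in both lists, whose median log2 ratio was 0.72 (fold 1.65), so the direction was shared with nearly all marked genes. Of the members 16 of 25 lay above that median. The interval was above 1 at 8 of 25 members, beside 25.6% over all such genes, and below 1 at none, beside 0.0165%. The medians with pileups scaled by the relative depths instead were 0.74 for members and 0.60 for all genes.

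The highest ratios were those of Ndufa11 (2.76, 1.63 to 4.87), Ndufb5 (2.73, 1.56 to 4.98), Ndufa4 (2.46, 1.13 to 5.75) and Ndufa6 (2.41, 1.26 to 4.88). Next came Ndufs8 and Ndufv1. Ndufa4 had 10 reads in vector and 24 in POH1-Flag cells. It was named as a complex I subunit and is now placed in complex IV. The ratio was also above 1 with its interval at Ndufa13 (2.09, 1.24 to 3.61) and Ndufb6 (1.93, 1.06 to 3.64). The peaks behind the ratios of Ndufa11, Ndufa4, Ndufa13 and Ndufb6 lay nearer to an end of Vmac, Phf14, Tssk6 and Topors. At Ndufb5 the POH1-Flag peak lay nearer to an end of Mrpl47 and the vector peak did not. Lowest were Ndufb1 (1.06, 0.591 to 1.92), Ndufb9 and Ndufc2 (10 and 11 reads each, 1.13, 0.434 to 2.96), Ndufaf3 (1.25, 0.640 to 2.47), Ndufa2 (11 and 14 reads, 1.3, 0.549 to 3.17) and Ndufaf6 (1.36, 0.606 to 3.16). The intervals of Ndufa11 and Ndufb1 overlapped between 1.63 and 1.92. These genes were named for extreme ratios, so their sizes are a description. In between lay, among genes not given elsewhere, Ndufa7 (13 and 23 reads, ratio 1.81), Ndufb2 (9 and 15 reads, 1.71) and Ndufb4 (12 and 17 reads, 1.45), whose intervals all held 1.

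The local background solved for the peaks was also higher in POH1-Flag cells. The local background of each peak, solved from the same list, had a median of 1.45 reads over the 25 members in vector and 2.52 in POH1-Flag cells, and of 1.82 and 2.83 over all genes with both peaks. Set against their own local backgrounds, members had a median log2 ratio of 0.05 and all genes one of 0.06. The sources used here do not say which reads enter the local background, and the peak's own reads may be among them. The part of the local background in the pileup ratios was not tested.

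**Figure D3:**
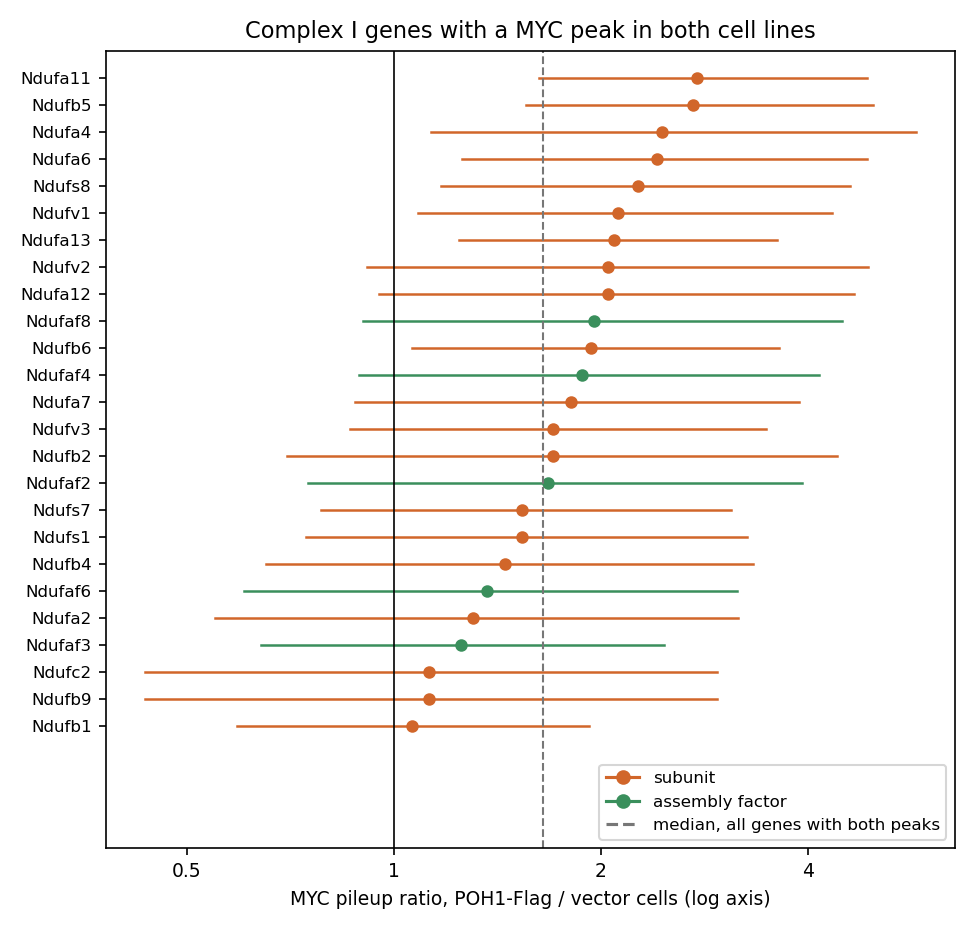
Ratio of MYC pileup in POH1-Flag to vector cells (log axis) for the 25 complex I genes with a peak in both lists, each pileup taken over its own library's genome-wide background, with exact conditional Poisson 95% intervals that cover counting error only. All 25 points lie right of 1, and the dashed line marks the median of 1.65 over all genes with both peaks.

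The 17 genes marked in POH1-Flag cells only comprised 14 subunits and 3 assembly factors, and no core subunit. Their pileups there ran from 7 to 24 reads with a median of 14, below the 22 reads of the members with peaks in both lines. The corresponding medians over all genes were 14 and 25. None of the 17 peaks overlapped a vector peak by 1 bp or more. The nearest vector summit to an end was 2638 bp away at Ndufs6, a zinc-binding subunit of the matrix arm, and at least 6960 bp away at the others. With the limit at 2 kb the number was again 17, and at 5 kb it was 16.

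Ndufa3 led this group with 24 reads, followed by Ndufab1 with 20. Ndufab1 is the mitochondrial acyl carrier protein, which also serves fatty acid and lipoate synthesis. Ndufa8 and Ndufb7 had 19 reads each and Ndufa10 had 18, and all 3 encode membrane-arm subunits. Ndufb11 had 15 reads, Ndufa5 and Ndufc1 had 14, and Ndufs6 had 13. Ndufb3 and Ndufs5 stood at 10 reads. The weakest were Ndufs4 and Ndufb8 with 8 reads and Ndufa1 and the assembly factor Ndufaf1 with 7. Ndufs4 is known from mice in which its loss gives a Leigh-like encephalopathy. Of the 17 peaks 13 had at least 10 reads. By position in the complex, known for 36 of the 41 subunit genes, 10 of 11 membrane-arm genes without a vector peak had one in POH1-Flag cells and 3 of 6 matrix-arm genes. Their intervals (62.3 to 98.4% and 18.8 to 81.2%) overlapped.

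Membrane-arm genes with a peak went from 9 to 19 of 20 and matrix-arm genes from 10 to 13 of 16. By gene family, Ndufa genes with a peak numbered 7 and 13 of 15 (Ndufab1 included), Ndufb genes 6 and 10 of 13, Ndufc genes 1 and 2 of 2, Ndufs genes 3 and 6 of 8 and Ndufv genes 3 and 3 of 3. Ndufv3, the remaining gene of the last family, had 15 and 25 reads. Groups of this size leave wide intervals, and no order among them was tested.

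A peak near an end was lacking in both lines at 7 subunit genes. Besides Ndufs3 these included Ndufa9, a subunit beside the quinone site, Ndufb10 of the membrane arm, and Ndufa4l2, Ndufb4b and Ndufb4c. Ndufa4l2 is a hypoxia-inducible paralog of Ndufa4. Ndufb4b and Ndufb4c are short copies of Ndufb4 of 471 and 485 bp. Ndufb10 (chromosome 17, 24722060 to 24724423) came closest to the 1 kb limit, with summits 2190 and 2024 bp away. Without Ndufa4, Ndufa4l2, Ndufb4b and Ndufb4c, 24 and 41 of 45 members had a peak. The member just inside the limit was Ndufb6, at 855 and 870 bp.

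All 8 assembly factors had a MYC peak in POH1-Flag cells and 5 did in vector cells. Subunits had one at 34 and 20 of 41 genes. In percent, assembly factors went from 62.5% (30.6 to 86.3%) to 100% (67.6 to 100%) and subunits from 48.8% (34.3 to 63.5%) to 82.9% (68.7 to 91.5%). These intervals overlapped in each line, so the shares of the 2 classes could not be told apart with 8 assembly factors. Among peaks with a −log10 q of 5 or more the shares in POH1-Flag cells were 62.5% and 63.4%. Pileup ratios had a median log2 of 0.74 over 5 assembly factors and 0.90 over 20 subunits. No assembly factor had an interval above 1, and 8 subunits did. The highest POH1-Flag pileup was 22 reads among assembly factors and 54 among subunits.

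Ndufaf4 (chromosome 4, 24898083 to 24905001) and Ndufaf3, which act together on the quinone module, had 12 and 22 reads and 18 and 22 reads. Ndufaf8 had 11 and 21 reads, a ratio of 1.95 (0.90 to 4.49), the highest of the assembly factors. Its product is the partner of Ndufaf5. Ndufaf2, a paralog of the subunit Ndufa12, had 11 and 18 reads, and Ndufa12 itself 11 and 22. Ndufaf6, a relative of phytoene synthases, had 12 and 16 reads. In POH1-Flag cells only, Ndufaf5, an enzyme that modifies Ndufs7, had 19 reads, Ndufaf7, a protein arginine methyltransferase, had 12, and Ndufaf1, a chaperone of the membrane arm, had 7. Ndufs7 itself had a peak in both lines.

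Of the assembly genes outside the Nduf naming, 11 of a list of 12 were found in the table. Among these 4 had a peak in vector cells (36.4%, 15.2 to 64.6%) and 10 in POH1-Flag cells (90.9%, 62.3 to 98.4%), beside 28.2% and 40% of all genes. In both lines these were Foxred1 (19 and 40 reads, ratio 2.15, 1.22 to 3.94), Ecsit (15 and 30 reads, 2.05, 1.07 to 4.09), Tmem186 and Timmdc1. Peaks in POH1-Flag cells only were at Tmem70, Acad9, Dmac2, Aifm1, Tmem126b and Dmac1, with 13 to 16 reads. Nubpl, which carries iron-sulfur clusters to complex I, had none. With these genes added, 9 and 18 of 19 assembly genes had a peak.

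Most summits lay at the start of the gene. Start sites were in the promoter table for 21 of the 25 members with a vector peak and 38 of the 42 with a POH1-Flag peak. A summit within 250 bp of a start was found at 18 of 21 and 33 of 38. Over all genes with a peak and a start site the share was 73.7% and 76.7%. The median position relative to the start, negative upstream, was −13 bp in vector and 20 bp in POH1-Flag cells. Ndufa11, Ndufa13 and Ndufb6, 3 of the 4 members with the highest pileups in POH1-Flag cells, were exceptions. The Ndufa11 summits lay 623 and 618 bp upstream of its start, and 560 and 555 bp from an end of Vmac. Those of Ndufa13 lay at −1060 and −1229 bp, nearer to Tssk6, and a second POH1-Flag peak of Ndufa13 with 30 reads lay 152 bp downstream. At Ndufb6 the strongest peak was at the 3′ end, beside the ends of Topors and Smim27, while a peak of 15 reads 67 bp from its own start was listed in POH1-Flag cells only. Counted by start sites alone, 19 and 38 of 42 members had a peak, beside 30.4% and 43.1% of all genes with a listed start. Of the 23 members without a vector peak at that setting 19 had one in POH1-Flag cells, beside 18.9% of all such genes.

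**Figure D4:**
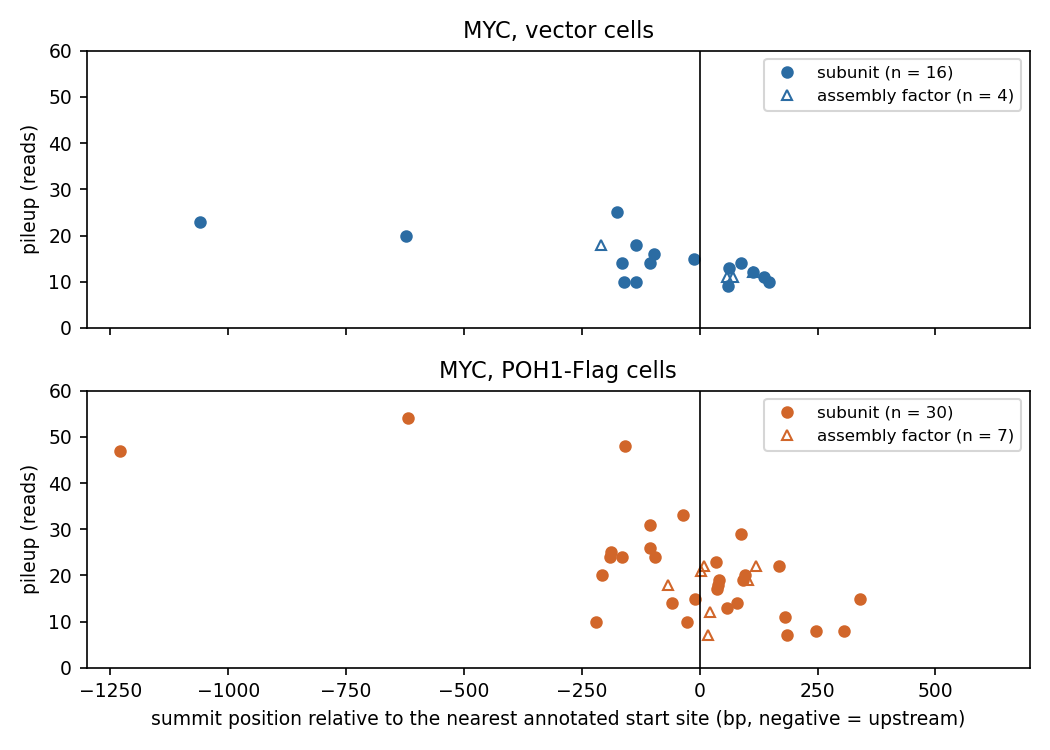
Pileup in reads (y axis) against the position of the strongest gene-end summit relative to the nearest annotated start site in bp (x axis), for MYC in vector cells (top) and POH1-Flag cells (bottom); filled circles are subunits and open triangles assembly factors. Ndufb6, whose strongest peak is at its 3′ end, lies outside the axis, and the 2 leftmost points of each panel are Ndufa11 and Ndufa13.

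Many of these peaks also lay within 1 kb of an end of another gene. In vector cells 15 of 25 members (60%) shared their peak with the end of another protein-coding gene, and in POH1-Flag cells 23 of 42 (54.8%). The shares over all genes with a peak were 32.1% and 29.6%. The partner of Ndufb5 was Mrpl47, whose end was 172 and 149 bp from the summit, and that of Ndufs6 was Mrpl36, both genes of the mitochondrial ribosome. Ndufa7 shared its peak with Rps28 and Ndufs1 with Eef1b2, genes of translation. Ndufb1 lay beside Cpsf2, Ndufa4 beside Phf14, Ndufaf2 beside the DNA repair gene Ercc8, Ndufaf5 beside Esf1 and Ndufaf7 beside Cebpz. A peak of this kind cannot be given to the complex I gene alone. Among the 26 members without a shared peak, 10 and 19 had a peak, beside 21.6% and 31.9% of all genes treated the same way. Of the 16 without a vector peak 9 had one in POH1-Flag cells, beside 13.7% of all such genes.

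CACGTG was present at 2 of 42 members (4.76%), Ndufa7 and Ndufv1, and at 8.91% of 17492 genes with a window. Both are among the 21 members with a window and MYC peaks in both lines, a share of 9.52%, beside 13.7% over all such genes. Counts this small do not place the members above or below those shares. Both strands were searched, and CACGTG and CGCATGCG read the same on each. In Ndufa7, shown above, the E-box begins at −72 bp from the start of the printed window's gene model (a second start site is listed downstream) and lay inside the POH1-Flag peak, 176 bp from its summit, and outside the vector peak. The E-box of Ndufv1 begins at −169 bp and lay outside both peaks, 254 and 253 bp from the summits. The variant CACGCG was present at 10 of 42 members (23.8%) and at 13.7% of all genes. Among genes with MYC peaks in both lines it was present at 6 of 21 members (28.6%) and 24.2% of all, and among those with a POH1-Flag peak only at 4 of 17 members (23.5%) and 17.4% of all. Either form was present at 11 members (26.2%) and 20.8% of all genes, and with peaks in both lines at 7 of 21 members (33.3%) and 34.5% of all. Ndufb1, Ndufa6, Ndufb4, Ndufc2, Ndufb3, Ndufs6, Ndufaf5, Ndufaf7 and Ndufaf8 were members with the variant alone. In Ndufb1 it lay inside both peaks, 99 and 29 bp from the summits.

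Letters of other factors known from respiratory genes were searched as well. The NRF1 core CGCATGCG was present at Ndufa11, Ndufa8, Ndufaf4 and Ndufaf5, 4 of 42 members (9.52%), and at 2.77% of all genes. With MYC peaks in both lines the counts were 2 of 21 members and 5.46% of all, and with a POH1-Flag peak only 2 of 17 members and 4.30% of all. The YY1 letters AAGATGGCG were present at 6 members (14.3%), Ndufa9, Ndufaf8, Ndufc1, Ndufs4, Ndufs6 and Ndufs7, and at 2.14% of all genes. In the same order these were 2 of 21 and 4.02%, and 3 of 17 and 4.58%. None of the 24 sites of the 4 motifs in the members overlapped another. The windows of members held a median of 20 CpG dinucleotides in 300 bp, against 13 over all genes. It was 24 in members with peaks in both lines, 20 in those with a POH1-Flag peak only and 15 in the 4 with neither, and 23, 20 and 5 over all genes in the same order. A match of letters is a description of the window and not a site of binding.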

How the data were processed

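CUT&Tag libraries were made with a commercial kit, per the labels' protocols. Per the submitters' processing notes, MACS2 2.2.7.1, BWA 0.7.17-r1188, Trim Galore 0.6.6 and FastQC 0.11.9 were used with GRCm38/mm10 (the notes give no roles or parameters). Whether there was a control library, and how duplicates were handled, is not given in the sources used here. The authors deposited 1 peak list per library, of 2936 (Flag), 12175 (MYC, vector) and 22647 peaks (MYC, POH1-Flag).

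The deposited positions and summit offsets are in bp. The score deposited for a peak equals its −log10 q multiplied by 10 and cut to a whole number, with few exceptions. Fold enrichment, as deposited, is a linear ratio at the summit, and −log10 of p and of q were deposited for the same position. A whole pileup k over a background λ was solved by setting the fold to (k + 1)/(λ + 1) and −log10 p to the Poisson tail, which worked for 100% of peaks, within 0.01 of a read step. The total number of reads is not given in the sources used here, and the solved background served as depth. For the relative depths it was first divided by the narrowest peak width. Median pileups of 15, 14 and 15 reads leave wide counting error.

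For each gene the gene-end peak with the highest −log10 p was used. Ratios carry exact conditional Poisson 95% intervals and shares Wilson 95% intervals. The ratio intervals cover counting error only, and kept PCR duplicates would make them too narrow. The share intervals treat genes as independent draws from 1 library. Genes are not replicates, so no p is given. Python 3.11.15, pandas 2.3.3, SciPy 1.17.1 and matplotlib 3.10.9 were used, and the steps were tested on simulated data.

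RefSeq's GRCm38.p6 table gave the gene ends, and strand, start sites and promoter letters came from its promoter table. In full were named the core subunits, all Ndufaf genes, the 6 highest pileups per MYC library, the 6 highest and 6 lowest ratios, and members with a peak in 1 MYC list only or in none. Values of 1 member are not reported here. Others were named as members of a family or beside a count. Members, lists and rules were chosen with earlier results of these data known. The NRF1 and YY1 letters, the motif counts by peak pattern and the printed promoters were chosen after the peaks were seen.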

Additional observations from a re-analysis of the deposited data

How the results depend on the processing

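No paired analysis was possible because each group had 1 library, and no library could be left out. The count of members with a vector MYC peak (25) was 16 when −log10 q had to reach 5, 1 when it had to reach 10, and 10 without members that share a peak with a neighbour. The count in POH1-Flag cells (42) was 18 when −log10 q had to reach 10 and 19 without shared peaks. Both fall with the last setting by construction, since only members with a peak can be left out. The count in POH1-Flag cells only (17) was 8 with MYC lists of equal length and 9 without shared peaks. The median log2 ratio (0.86) was 0.14 after the median of all genes with both peaks was subtracted and 0.0535 against each peak's own local background. For the latter the cause was not tested. With −log10 q reaching 5, the share of subunits was 31.7% in vector and 63.4% in POH1-Flag cells and that of assembly factors 62.5% in POH1-Flag cells. With CACGCG added, 11 promoters held an E-box. No count or median changed sign, but some orders turned. In vector cells members lay above all genes (51.0% and 28.2%) and below them with −log10 q reaching 10 (1 of 49, beside 6.91%). In vector cells assembly factors lay above subunits (62.5% and 48.8%) and below them with the other assembly genes added (47.4% and 48.8%). Assembly factors lay above subunits in POH1-Flag cells (100% and 82.9%) and below them with −log10 q reaching 5. Members lay below all genes for CACGTG (4.76% and 8.91%) and above them with CACGCG added (26.2% and 20.8%). Their median log2 ratio lay above that of all genes (0.72) and, against local background, below it (0.06). Low pileups limit single genes, as 17 of the 25 ratio intervals held 1.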
